A study of Mus musculus with 42 samples.

Results

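The effect of the polycyclic aromatic hydrocarbon benzo(k)fluoranthene (BkF) on messenger RNA levels in lung was set against its effect in forestomach. The question was whether a compound given by mouth changed the same genes in the tissue it first touches and in a tissue reached through the blood. The comparison used 23 of the 42 arrays of the series, chosen by their labelled tissue and dose group: 12 of lung and 11 of forestomach. All came from adult male Muta™Mouse of about 11 weeks, a transgenic strain used to score mutations, so vehicle and treated mice carried the same transgene. Every mouse was gavaged daily for 28 days and tissues were taken 72 h after the last gavage. The vehicle group (D0) received olive oil alone (0 mg/kg-bw/day), and the 2 treated groups received BkF in olive oil, at 50 (D2, medium dose) or 100 (D3, high dose) in the same unit. Lung was measured in 4 mice of each group, and forestomach in 4, 4 and 3 mice. The arrays came from 12 mice, of which 11 gave both tissues; high-dose mouse 19 gave lung only. RNA was taken from random sections of each organ, so every value is an average over all its cells, and fewer cells of a type and less RNA per cell cannot be told apart.

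The aryl hydrocarbon receptor (AhR) is a ligand-activated transcription factor held in the cytosol by HSP90 and co-chaperones. A planar ligand such as a polycyclic aromatic hydrocarbon sends it to the nucleus, where it pairs with ARNT and binds short DNA elements near its target genes. These targets include the cytochromes P450 of family 1, which oxidise such hydrocarbons and can turn them into DNA-reactive metabolites, phase II enzymes that conjugate the products, and 2 genes, Ahrr and Tiparp, whose proteins repress the receptor. Forestomach of the mouse is a keratinised, stratified squamous pouch, and lung is lined by airway and alveolar epithelium.

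The promoters of 4 AhR targets are shown first, the 3 with a called difference and Cyp1a1, because each holds the core letters of the element the receptor is known to bind. Binding was not measured. The windows run from 250 bases before to 50 after the RefSeq start site (GRCm38.p6), 5′ to 3′ on the gene's strand. Capitals mark the core of the xenobiotic response element, GCGTG, or its reverse complement CACGC.
Cyp1a1, chr9:57697363-57697662, + strand: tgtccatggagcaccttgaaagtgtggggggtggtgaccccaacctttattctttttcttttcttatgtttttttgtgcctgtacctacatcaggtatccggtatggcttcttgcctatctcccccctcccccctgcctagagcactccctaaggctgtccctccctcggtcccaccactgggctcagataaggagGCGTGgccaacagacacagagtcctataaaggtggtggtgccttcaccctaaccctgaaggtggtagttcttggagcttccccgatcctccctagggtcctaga
Cyp1b1, chr17:79715012-79715311, - strand: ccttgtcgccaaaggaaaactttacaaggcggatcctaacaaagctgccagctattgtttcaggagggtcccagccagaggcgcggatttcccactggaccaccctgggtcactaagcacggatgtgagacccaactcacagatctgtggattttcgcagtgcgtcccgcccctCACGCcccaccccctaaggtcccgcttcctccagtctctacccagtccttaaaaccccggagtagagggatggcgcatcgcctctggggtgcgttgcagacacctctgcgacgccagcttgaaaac
Ahrr, chr13:74292282-74292581, - strand: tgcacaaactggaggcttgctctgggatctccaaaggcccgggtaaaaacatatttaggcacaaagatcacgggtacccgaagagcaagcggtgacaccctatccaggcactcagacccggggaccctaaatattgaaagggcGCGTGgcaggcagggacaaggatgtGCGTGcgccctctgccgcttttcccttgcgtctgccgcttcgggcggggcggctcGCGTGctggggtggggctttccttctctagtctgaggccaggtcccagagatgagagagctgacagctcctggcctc
Tiparp, chr3:65528197-65528496, + strand: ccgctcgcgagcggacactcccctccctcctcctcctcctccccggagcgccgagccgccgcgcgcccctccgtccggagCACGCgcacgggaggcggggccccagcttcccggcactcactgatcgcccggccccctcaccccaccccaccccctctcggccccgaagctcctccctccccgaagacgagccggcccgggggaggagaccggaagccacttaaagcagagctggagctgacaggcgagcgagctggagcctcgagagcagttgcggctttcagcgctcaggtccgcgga
Cyp1a1, Cyp1b1 and Tiparp each held 1 core in this window and Ahrr held 3. On both strands together the core occurred in 10639 of the 32851 promoters of the table (32.4%), and 11.1% held 2 or more, so its presence alone marks no gene as a target. Of the 14 genes of the AhR battery, a list of known AhR targets, 12 had a promoter in the table and 7 of these held the core. The battery genes without it in the window were Cyp1a2, Nqo1, Ugt1a6a, Ugt1a7c and Cyp2s1. Elements outside these 300 bases were not searched.

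Each array compared 1 tissue sample, labelled with Cy5, with a reference RNA from mouse cell lines, labelled with Cy3. Levels are given as log2 ratios of sample over reference, and a change is the mean of the D2 and D3 group means minus the D0 mean within a tissue. The difference between tissues is the change in lung minus the change in forestomach. Between 42.1% and 61.1% of the spots of a lung array and between 29.4% and 47.4% of those of a forestomach array were well above background. Lung epithelium markers were well above background on every lung array for 16 of 16 genes, and for 5 of 16 on every forestomach array. Squamous differentiation genes were so for 22 of 27 on every forestomach array and for 11 of 27 on every lung array, so both tissue labels carried their markers.

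A few arrays stood apart from the others of their tissue. The lung of medium-dose mouse 12 had a skeletal muscle score of 5.37, a mean log2 deviation from the lung median over 8 markers, against 0.22 at most in the other lungs. Its squamous differentiation score was 2.35, against 0.11 at most elsewhere in lung. The forestomach arrays differed in markers of glandular stomach. In 5 of them the glandular score lay between -4.64 and -3.68 (vehicle mice 1 and 4, medium-dose mouse 11, high-dose mice 16 and 20), and in the other 6 between 0.08 and 1.26. Both kinds of array occurred in each dose group. With the glandular score as a covariate 6 probes were called in place of 4, and without lung 12 the count was 4.

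The AhR targets Cyp1b1, Ahrr and Tiparp rose more in lung than in forestomach. Of 24352 probes tested in both tissues, limma with Benjamini-Hochberg adjustment called 4 that passed both an adjusted p threshold of 0.05 and a 1.5-fold difference (0.0164% of the probes). All 4 changed more in lung: Cyp1b1, Ahrr, Tiparp and the probe A_55_P2004099, which has no symbol in the annotation used. No probe was called in the other direction, and 1213 probes (4.98%) had an unadjusted p under 0.05, 616 of them larger in lung and 597 smaller. Taken alone, the lung effect gave 11 called probes (0.0452%), 9 higher and 2 lower with BkF. That count was 31 without lung 12, and 7 without any one of the 4 vehicle lungs or of high-dose lungs 16 and 17. The forestomach effect gave none (0%) in limma, with 1111 probes at an unadjusted p under 0.05.

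**Figure D1:**
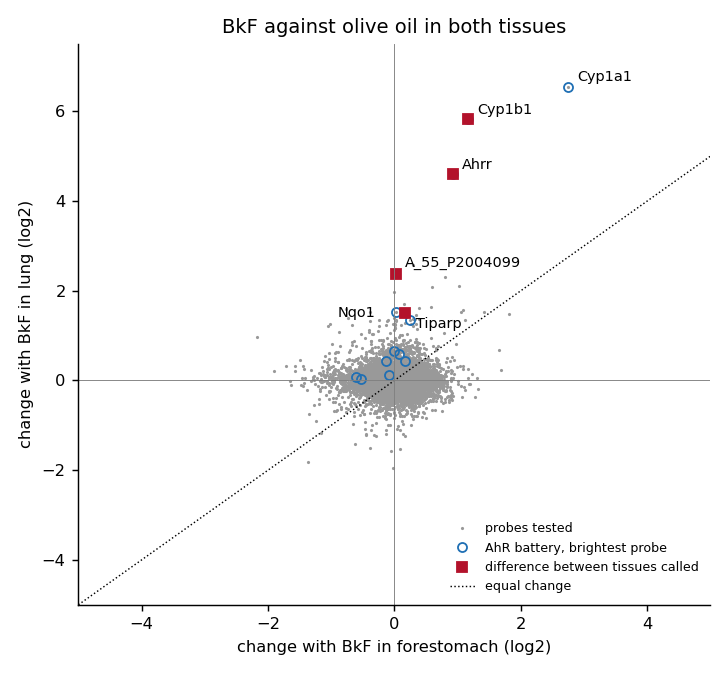
Change with BkF in lung (y axis, log2) against the change in forestomach (x axis, log2), 1 grey point for each of the 24352 probes tested. Red squares are the 4 probes whose difference between tissues was called, blue circles the AhR battery genes by their brightest probe, and the dotted line marks equal change. Cyp1a1, Cyp1b1 and Ahrr lie above the line, with lung changes of 6.55, 5.82 and 4.60.

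The median difference over all probes was -0.005, and the correlation of the lung and forestomach changes across the 24352 probes was 0.0546. This r is a description, since genes are not independent replicates and 11 mice are shared. The median standard error of a change was 0.128 in lung and 0.168 in forestomach, and that of the difference was 0.22. The median size of a change, sign aside, was 0.0944 in lung and 0.131 in forestomach. Both were below the median standard error of their tissue, so an r near 0 does not by itself show unlike responses. The smallest called difference was 1.33, and differences such as 0.81 for Cdv3 were not called. Calling depended on a probe's spread as well as on size. Larger differences, such as 3.80 for Cyp1a1 (SE 0.75) and 1.97 for S100a8 (SE 0.65), were not called either.

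Cyp1b1, a cytochrome P450 that oxidises aromatic hydrocarbons in tissues outside the liver, showed the largest called difference with the loess ratios used here. With the scanner software's ratios that of Ahrr was larger, 4.82 against 4.77. The log2 ratio of Cyp1b1 in vehicle lung was -1.93, -2.64, -2.01 and -1.42, and it was 4.18, 3.60, 4.22 and 2.00 in medium-dose lung and 4.37, 4.27, 4.24 and 3.69 in high-dose lung. In forestomach it was -0.78, -1.04, -0.94 and -0.59 in the vehicle group, 0.25, 1.46, -0.41 and -0.33 at the medium dose and 0.40, 0.68 and 0.16 at the high dose. All 8 treated lungs and all 7 treated forestomachs lay above every vehicle array of their tissue. The lowest treated lung, medium-dose mouse 15, was still above the highest treated forestomach. The level rose by 5.82 (SE 0.36) in lung, which is 56.6-fold (limma, adjusted p = 8.62e-06). In forestomach the change was 1.16 (SE 0.31), or 2.24-fold, and did not pass the test (adjusted p = 0.92 in limma, unadjusted p = 0.0034). The difference was 4.66 (SE 0.48, 95% interval 3.67 to 5.65, limma adjusted p = 1.44e-05).

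Ahrr encodes the AhR repressor, which competes with the receptor for ARNT. Its log2 ratio in vehicle lung was -0.65, -0.74, -0.93 and -0.25, and none of these arrays was well above background. It was 4.02, 3.42, 3.97 and 2.64 at the medium dose and 4.63, 4.55, 4.38 and 4.03 at the high dose. In forestomach the values were 0.04, 0.47, 0.39 and 0.05 in the vehicle group, 1.23, 0.96, 0.50 and 0.78 at the medium dose and 2.04, 1.27 and 1.07 at the high dose. Vehicle and treated arrays did not overlap in either tissue, although medium-dose forestomach 13, at 0.50, lay just above vehicle forestomach 2, at 0.47. Since the vehicle lungs were dim, treated lung was at least 20.8-fold higher, taken from Cy5 signals normalised by loess and then Aquantile, with means of 10.34 and 5.96 on the log2 scale. The fitted change was 4.60 (SE 0.24) in lung (limma, adjusted p = 1.15e-06) and 0.93 (SE 0.20) in forestomach (limma, adjusted p = 0.92). The difference of 3.67 (SE 0.31, 95% interval 3.02 to 4.31) had the smallest adjusted p of all probes in limma, 6.74e-07. Its size is uncertain, since the vehicle arrays were dim in both tissues, and it was 4.82 with the scanner software's ratios.

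Tiparp encodes a mono-ADP-ribosyltransferase that marks the ligand-bound receptor for breakdown. The called probe, A_55_P1985890, read 0.31, 0.22, 0.46 and 0.48 in vehicle lung, 1.56, 1.19, 1.91 and 0.83 at the medium dose and 2.46, 2.59, 2.04 and 2.39 at the high dose. Forestomach read -0.47, -0.04, -0.45 and -0.17 in the vehicle group, -0.32, -0.27, -0.09 and -0.38 at the medium dose and 0.25, -0.07 and -0.06 at the high dose. In lung the 3 dose groups did not overlap, while in forestomach only 1 of 7 treated arrays exceeded every vehicle array. The rise in lung was 1.5 (SE 0.17), 2.83-fold, and the change in forestomach was 0.17 (SE 0.13). The difference of 1.33 (SE 0.21) had an adjusted p of 0.0185 in limma. This call was the least firm of the 4. The Tiparp probe that was brighter over both channels together, A_51_P514961, gave a difference of 1.08 (SE 0.25, limma adjusted p = 0.44), also with all 8 treated lungs above the vehicle lungs. The call was lost when the mouse was a block (limma, adjusted p = 0.092), with quantile normalisation, with the scanner software's ratios and at the medium dose alone. It was also lost in 8 of the 23 fits that left out 1 array, with differences from 1.25 to 1.37. The arrays left out in these fits were each of the 4 vehicle lungs, medium-dose lung 11, high-dose lungs 16 and 17, and vehicle forestomach 2.

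The fourth called probe, A_55_P2004099, read -0.17, -0.29, -0.29 and -0.31 in vehicle lung, 2.26, 1.63, 2.49 and 1.14 at the medium dose and 2.58, 2.33, 2.34 and 2.07 at the high dose. In forestomach all 11 arrays lay between -0.08 and 0.26, and 8 of them were well above background. The probe rose by 2.37 (SE 0.21) in lung, with a change of 0.02 (SE 0.11) in forestomach, and the difference was 2.35 (SE 0.23, limma adjusted p = 4.64e-05). The 95% interval of the difference ran from 1.86 to 2.83. All 8 treated lungs lay far above the vehicle lungs, and treated and vehicle forestomachs overlapped.

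**Figure D2:**
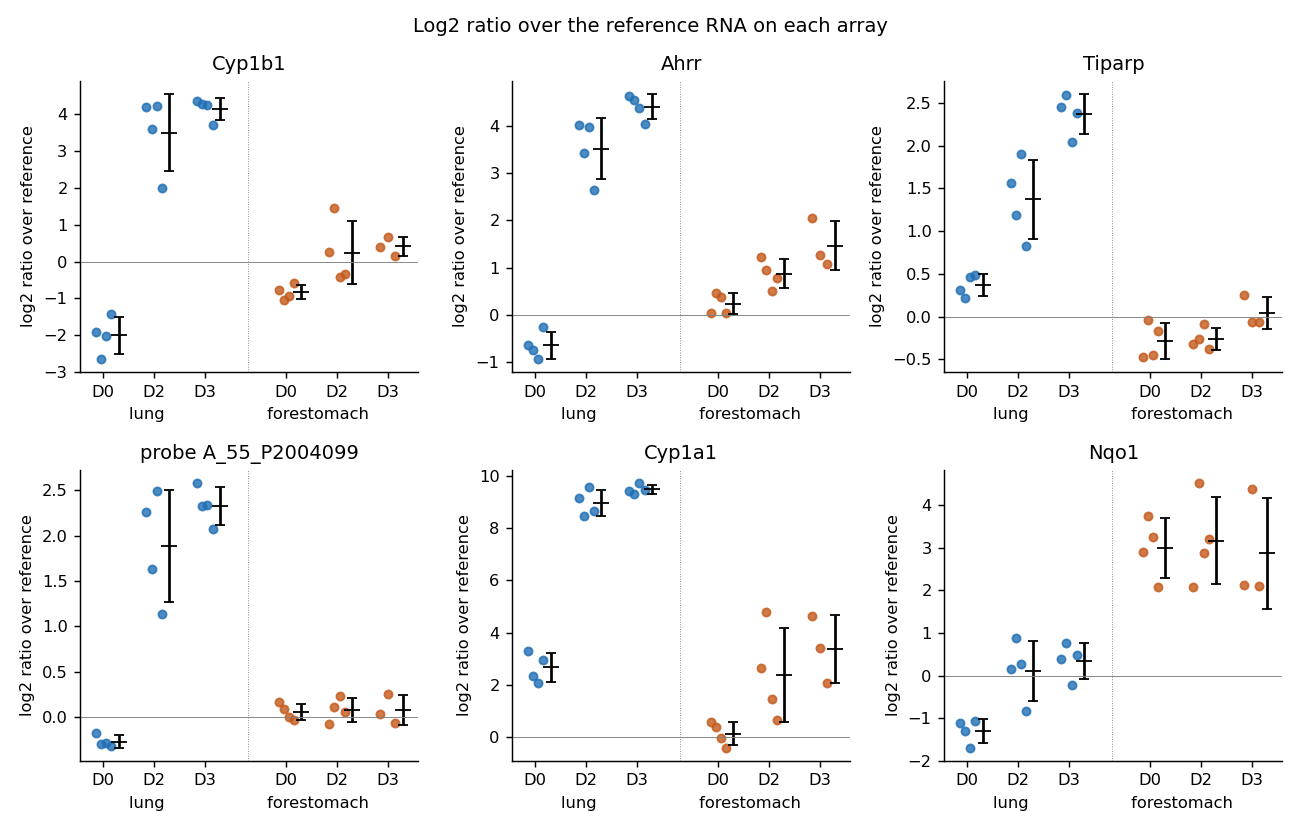
Log2 ratio of sample over reference RNA (y axis) on each of the 23 arrays for 6 probes, by dose group in lung (blue) and forestomach (orange). Points are single arrays, and the black bars beside them give the group mean and SD. For Cyp1b1 all treated lungs lie between 2.00 and 4.37, above every forestomach array.

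Cyp1a1, the prototype AhR target and a main enzyme of hydrocarbon oxidation, rose in lung but did not pass the test of the difference. Vehicle lung read 3.29, 2.35, 2.09 and 2.96, medium-dose lung 9.14, 8.46, 9.57 and 8.66, and high-dose lung 9.43, 9.29, 9.73 and 9.47. Vehicle forestomach read 0.60, 0.38, -0.01 and -0.39, medium-dose forestomach 2.65, 4.78, 1.48 and 0.64, and high-dose forestomach 4.66, 3.42 and 2.08. The treated lungs were close together, whereas the treated forestomachs spread over more than 4 log2 units, from just above the highest vehicle array to 4.78. On this scale, which rests on a dim reference signal, the change was 6.55 (SE 0.24) in lung (limma, adjusted p = 3.41e-08) and 2.74 (SE 0.71) in forestomach, where 1 of 4 vehicle arrays was well above background and limma gave an unadjusted p of 0.0026 and an adjusted p of 0.92. The difference was 3.80 (SE 0.75, 95% interval 2.20 to 5.41), with an adjusted p of 0.44 in limma. It was called without medium-dose forestomach 12, the array with the highest forestomach value, at 4.20 (limma, adjusted p = 0.0118).

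The Cyp1a1 difference turned in direction under 1 alternative, the ratios of the scanner software. The reference channel was well above background for this probe on 7 of 12 lung arrays and 1 of 11 forestomach arrays, and the sample channel on 1 of 4 vehicle forestomachs. With those ratios, which subtract background and also carry the software's own signal and dye normalisation, the difference was -1.43 (limma, adjusted p = 0.80). On that scale vehicle lungs read 6.97, 4.40, 5.62 and 6.80 and vehicle forestomachs 2.54, 0.67, -0.80 and 0.00, while treated lungs reached 9.03 to 10.86 and treated forestomachs 3.55 to 8.41, so the change in lung was smaller and that in forestomach larger than on the scale used above. With normexp background correction and an offset of 50 the difference was 3.90. Which step turned the sign was not tested. That lung held more Cyp1a1 than forestomach in every dose group was common to both scales, but the size of its rise relative to forestomach was not settled. The other scaling alternatives left the direction of the 4 called probes as it was.

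The other genes of the battery had smaller differences. Of 14 genes, 13 had a probe and 12 were tested, and the difference was above 0 for all 12, except for Cyp1a1 with the scanner software's ratios and Cyp2s1 with quantile normalisation (-0.07). The median was 0.66, against -0.005 over all probes. Of these, 2 were called by their brightest probe, Cyp1b1 and Ahrr, beside 0.0164% of all probes, and 5 had an unadjusted p under 0.05, beside 4.98%. The median change of the 12 was 0.62 in lung and 0.04 in forestomach. Without medium-dose lung 12 the median difference was 0.55, without vehicle forestomach 4 it was 1.04, and without high-dose forestomach 17 it was 1.05. A fit with slides as blocks gave 1.09, as did the high dose alone.

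Nqo1, the quinone reductase shared by the AhR and Nrf2 pathways, had a difference of 1.51 (SE 0.61) that missed the threshold (limma, adjusted p = 0.96). Vehicle lung lay between -1.69 and -1.08 and treated lung between -0.83 and 0.87, with no overlap. Forestomach lay between 2.09 and 3.75 in the vehicle group and between 2.07 and 4.53 with BkF. Its level was thus far higher in forestomach than in lung before treatment, and the treated forestomachs covered the range of the vehicle ones. Forestomachs of low glandular score read 2.07 to 2.91 and the others 2.87 to 4.53. The part of glandular stomach in this was not tested beyond the covariate fit. When slides were blocks the difference was 2.05 and was called (limma, adjusted p = 0.028).

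Among the phase II genes of the battery, Ugt1a6a, a glucuronosyltransferase, read -0.24 to -0.07 in vehicle lung and -0.05 to 0.55 with BkF, and all 8 treated lungs lay above the vehicle ones. Its difference was 0.27 (SE 0.21), and none of the following passed the test. Aldh3a1, an aldehyde dehydrogenase, had a difference of 0.52 (SE 0.32), with lung levels of 0.27 to 0.55 in the vehicle group and 0.17 to 1.81 with BkF. The glutathione S-transferases Gsta1 and Gsta2, near-identical paralogs whose probes may share signal, had differences of 0.65 (SE 0.68) and 0.56 (SE 0.90). Their forestomach levels ranged from 3.47 to 6.15 and from 4.20 to 7.76, with the 5 arrays of low glandular score between 3.47 and 4.07 for Gsta1 and the other 6 between 5.34 and 6.15. The part of glandular stomach in these values was not tested for single genes beyond the covariate fit.

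The last 3 genes of the battery had small changes in lung, none past the test. For Cyp2s1, an extrahepatic P450, the change was 0.12 in lung and -0.08 in forestomach. For Xdh, xanthine dehydrogenase, it was 0.07 and -0.60, and for Htatip2 0.03 and -0.52. Xdh and Htatip2 had differences of 0.67 (SE 0.42) and 0.55 (SE 0.36), and limma's adjusted p was 0.96 for both. Cyp1a2 was well above background on 2 lung arrays and on no forestomach array and was not tested. Ugt1a7c had no probe.

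The receptor and its partners showed no called difference. Of 11 genes 9 were tested, 3 with a difference above 0 and 6 below, with a median of -0.08. Ahr itself, at 1.74 to 2.23 in vehicle lung and -0.55 to -0.05 in vehicle forestomach, was higher in lung in every dose group. Its change was -0.39 (SE 0.28) in lung, where medium-dose mouse 12 was lowest at 0.39, and 0.10 (SE 0.17) in forestomach. The difference of -0.49 had a 95% interval from -1.18 to 0.19. Arnt, the partner of the receptor, had changes of 0.29 and 0.28, a difference of 0.01 with an interval from -0.40 to 0.42. For Hsp90aa1, Hsp90ab1 and Ptges3, the chaperones, the differences were -0.02, -0.23 and -0.08, and for the coactivators Ncoa1, Ncoa2 and Ncoa3 they were -0.13, -0.18 and 0.19. The sign of these values turned under 1 or more alternatives for Arnt, Hsp90aa1, Ptges3 and Ncoa3, and without 1 array also for Hsp90ab1 and Ncoa1. Other probes gave 0.02, 0.09 and 0.22 for Ptges3, 0.08 and -0.14 for Ncoa1, 0.46 for Ncoa3 and -0.12 for Arnt. Arnt2 was well above background on no array of either tissue, and Src on 5 lung arrays and no forestomach array, so neither was tested.

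**Figure D3:**
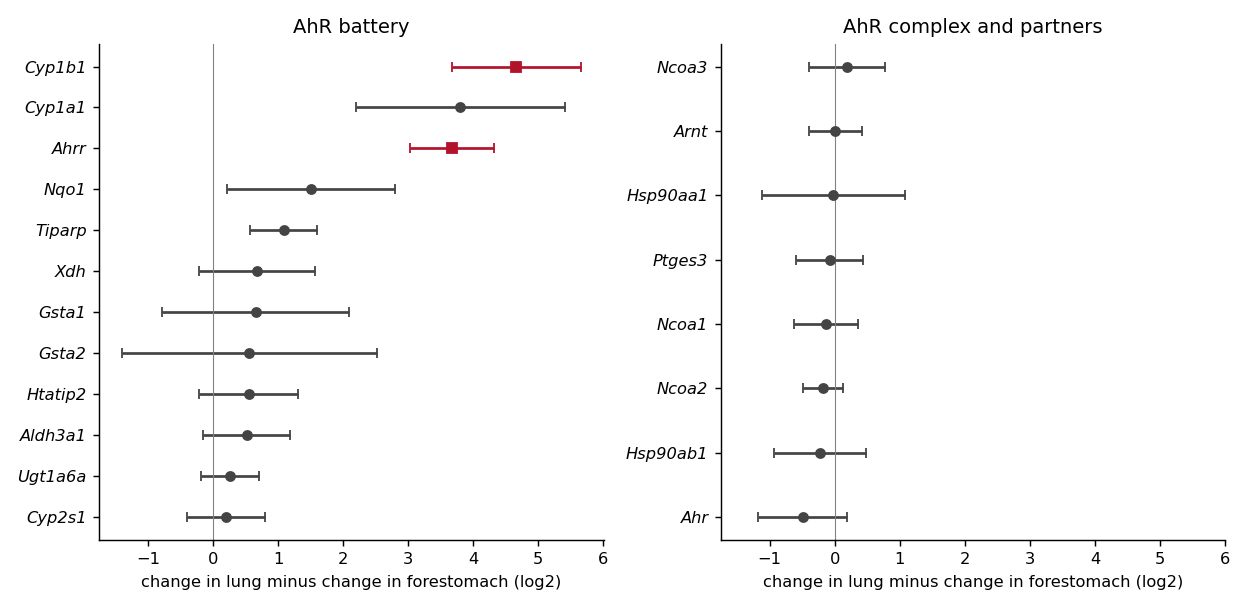
Difference between tissues (x axis, change in lung minus change in forestomach, log2) with its 95% interval for the 12 tested genes of the AhR battery (left) and 8 of the receptor complex (right). Red squares are called and dark circles are not, with Tiparp by its brighter probe. All 12 battery genes lie above 0 on this scale (Cyp1a1 turned with the scanner software's ratios and Cyp2s1 with quantile normalisation), from 0.20 for Cyp2s1 to 4.66 for Cyp1b1, and every interval shown for the receptor complex spans 0.

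Next it was asked whether the difference between tissues depended on dose. No probe was called for the high against the medium dose (0%, 933 probes at an unadjusted p under 0.05 in limma), although the slide as a block gave 165 calls. The difference at the medium and the high dose was 4.42 and 4.89 for Cyp1b1, 3.52 and 3.81 for Ahrr, and 2.12 and 2.57 for A_55_P2004099. For each of these the 95% interval of the change from medium to high dose included 0. For Tiparp the difference was 0.98 (SE 0.25, limma adjusted p = 0.45) at the medium and 1.67 (SE 0.25, limma adjusted p = 0.0061) at the high dose. The step of 0.69 (95% interval 0.17 to 1.21) had an adjusted p of 0.99 in limma. For Cyp1a1 the difference was 4.04 and 3.56.

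Both tissues were available from 11 mice, so lung could be set against forestomach within a mouse. For Cyp1b1 the lung ratio minus the forestomach ratio was between -1.61 and -0.82 in the 4 vehicle mice and between 2.14 and 4.63 in the 7 treated mice. For Ahrr it was between -1.32 and -0.30 and between 1.85 and 3.48. For Cyp1b1 lung was thus below forestomach in the vehicle mice and above it in every treated mouse. The vehicle values of Ahrr give no order, since its probe was well above background on none of the 4 vehicle lungs and on 2 of the 4 vehicle forestomachs. For Tiparp it was between 0.26 and 0.92 and between 1.21 and 2.66, and for Cyp1a1 between 1.98 and 3.35 and between 3.68 and 8.09, with lung above forestomach in all mice. With the mouse as a block, limma called 3 probes in place of 4.

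**Figure D4:**
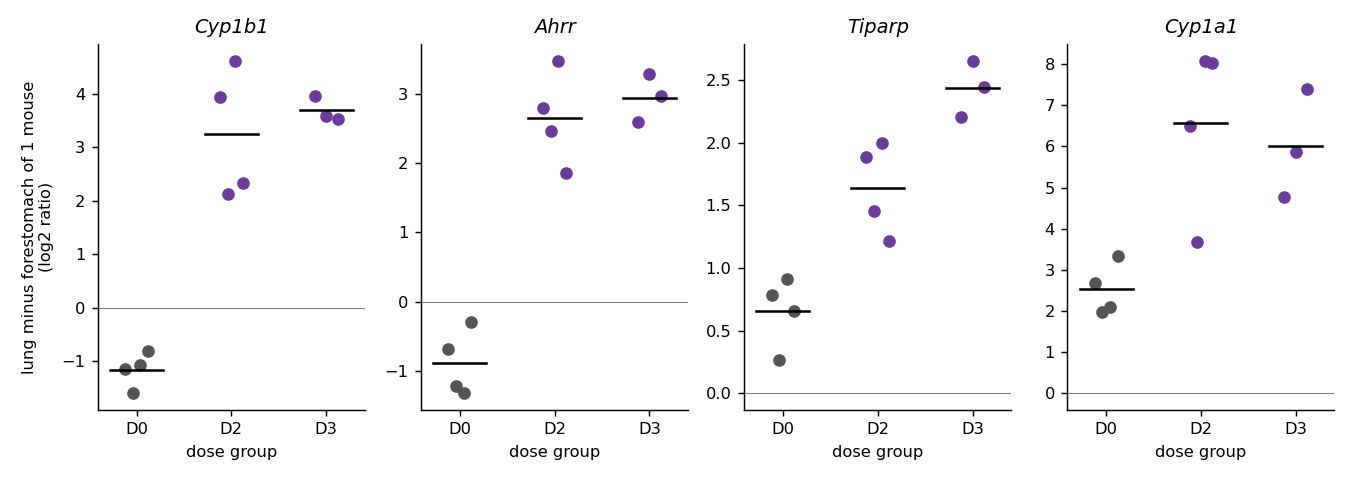
Log2 ratio in lung minus log2 ratio in forestomach of the same mouse (y axis) for 4 AhR targets, by dose group (x axis), 1 point a mouse with lines at the group means. Cyp1b1 and Ahrr lie below 0 in the vehicle mice and above 0 in the treated mice, with the vehicle lungs of Ahrr not well above background.

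Arrays were run on 4 slides, of which each held both tissues. On slide 1 no vehicle forestomach was present, so no within-slide value exists there. On slides 2, 3 and 4 the difference was 4.11, 4.90 and 5.09 for Cyp1b1, 3.45, 3.52 and 3.48 for Ahrr, 0.79, 1.56 and 1.10 for Tiparp and 2.02, 2.48 and 2.67 for A_55_P2004099. Slide 4 gave the medium dose alone. Cyp1a1 gave 4.64, 4.40 and 3.80 on the same slides. For each of these 5 probes the difference was above 0 on all 3 of these slides. The 4 called probes were called on these same arrays, so this is no separate check of them. The only vehicle lung was that of mouse 3 on slide 2, mouse 4 on slide 3 and mouse 1 on slide 4.

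Of the 11 probes called in lung, 9 rose. Besides those described they were A_66_P115580, which has no symbol here, Ces1g, a carboxylesterase, and Klf2, a transcription factor of quiescent endothelial and immune cells. A_66_P115580 rose by 2.32 (SE 0.23) in lung, with a change of 0.79 (SE 0.22, limma unadjusted p = 0.0039) in forestomach. Ces1g rose by 1.27 (SE 0.18) in lung, from 1.10 to 1.64 in the vehicle group to 1.94 to 3.23 with BkF. It was well above background on 3 of 11 forestomach arrays, where its change was -0.02 (SE 0.21). Its difference of 1.29 (SE 0.28) had an adjusted p of 0.43 in limma and was called at 1.44 in the fit blocked by slide (limma, adjusted p = 0.022), and at 1.33 with the glandular score as a covariate (limma, adjusted p = 0.0215). Klf2 rose by 0.96 in lung, with a change of 0.07 (SE 0.30) in forestomach. The 2 probes that fell in lung were Grp, gastrin-releasing peptide of neuroendocrine cells, by 1.94 on the log2 scale, and Ccnjl, a cyclin-like gene, by 0.71. Their changes in forestomach were -0.02 (SE 0.91) and 0.38 (SE 0.34), and neither difference was called. That of Ccnjl, -1.09, was called at -1.32 with the slide as a block and at -1.17 with the glandular score as a covariate.

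Where fewer than 5 named genes were called, those with the smallest p were listed too, as not called. Cdv3 had changes of 0.34 in lung and -0.47 in forestomach, a difference of 0.81 (SE 0.17, limma adjusted p = 0.43), but 3 other Cdv3 probes gave 0.09 to 0.45. In the direction of a larger value in forestomach the leading gene was Car14, a membrane-bound carbonic anhydrase. It read 2.02 to 2.83 in vehicle lung and 0.40 to 2.27 with BkF, and 7 of 8 treated lungs lay below every vehicle lung. Its change was -1.52 in lung and 0.09 in forestomach, a difference of -1.61 (SE 0.40, limma adjusted p = 0.63). Crebzf, Polr3e, Ccdc82 and Fam168b had differences from -0.93 to -0.58, made up of values that were higher with BkF in forestomach, by 0.37 to 0.61, and lower in lung, by -0.32 to -0.22. For Polr3e all 7 treated forestomachs lay above the vehicle ones, and for Fam168b all 8 treated lungs lay below theirs. The adjusted p of their differences was 0.86 and 0.90 in limma. Both genes were picked for a small p, and the share of all probes that separate as fully was not counted. Other probes gave smaller values, -0.35 and -0.32 for Crebzf, -0.26 for Polr3e and -0.05 for Ccdc82.

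The remaining gene lists held no called difference. Over all probes 11979 of 24352 had a difference above 0, and 4.98% had an unadjusted p under 0.05, which is the background for the counts of each list. Squamous differentiation, the programme of keratinised epithelium, had a median of 0.53 over 14 tested genes, 11 of them above 0 and 2 with an unadjusted p under 0.05. Tgm1, which cross-links the cornified envelope, had a difference of 1.52 (SE 0.54, limma unadjusted p = 0.010) and Sbsn, suprabasin, 1.35 (SE 0.71). Neither was called in either tissue, and the differences were 2.42 and 2.22 at the medium dose and 0.63 and 0.48 at the high dose. Among the medium-dose arrays lung 12 had the squamous score of 2.35 and forestomach 12 one of -1.09. Without lung 12 the list median was 0.27. Krt16 and Tgm3 were lowest, at -0.29 and -0.15, although a second Tgm3 probe gave 1.33.

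Genes of cholesterol synthesis had a median difference of 0.25, with 17 of 21 above 0, beside 11979 of 24352 over all probes. An unadjusted p under 0.05 in limma was found for 3 of them, all above 0, beside 4.98% of all probes. The median change of the list was 0.02 in lung and -0.21 in forestomach. Hsd17b7, a sterol reductase, had changes of -0.15 in lung and -0.73 in forestomach, a difference of 0.59 (SE 0.34). Near the other end lay Insig1, the sterol sensor, at -0.13. Without lung 12 the median was 0.27.

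Oxidative stress and conjugation genes were mixed. Of 16 Nrf2 targets, 9 were above 0 and 7 below, with a median of 0.11. Hmox1, haem oxygenase, had changes of -0.23 in lung and -1.18 in forestomach, and G6pdx, which supplies NADPH, of 0.15 and -0.60. Their differences were 1.75 and 1.21 at the medium dose and 0.15 and 0.28 at the high dose. Fth1 and Gclc were lowest, at -0.55 and -0.34. Among 14 further genes of conjugation and reduction of such hydrocarbons, Gstp1, a glutathione S-transferase, had a difference of 0.82 (SE 0.26, limma unadjusted p = 0.0053), and its other probe 0.95. Por, the electron donor of the P450s, had 0.55 (SE 0.24), with 1 of the 12 lung values left out of the fit as a spot outlier. Sult1a1 had -0.74, with -1.43 for its other probe, and Akr1a1 had -0.21, and the list median was 0.07. In the other P450 families the median was 0.06 (below 0 with quantile normalisation, when slides were blocks and at the high dose alone), with Cyp26b1 at 1.02 (SE 0.80), Cyp2b10 at 0.53, Cyp4f13 at -0.22 and Cyp2j9 at -0.30.

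Lists of damage, growth and the clock centred near 0. The 20 tested p53 targets split 10 to 10 with a median of 0.004. Perp, a desmosome-linked death gene, had 0.94 and Plk2, a kinase, 0.78 (SE 0.24, limma unadjusted p = 0.0039), against -0.87 for Pmaip1 and -0.50 for Tnfrsf10b. Cell proliferation genes had a median of 0.14, from Mcm6 at -0.40 and Mcm7 at -0.28 to Ccnb1 at 0.46 and Birc5 at 0.52. In the circadian clock the median was 0.10, with Usp2 and Rora at 0.66 and 0.58 and Arntl and Tef at -0.54 and -0.41.

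Lists of immune and airway genes also held no called probe. Inflammatory cytokines and chemokines had a median of 0.19 over 6 genes, with the acute phase protein Saa3 at 0.92 (SE 1.11), the chemokine Cxcl10 at 0.28, Il33 at -0.002 and Lcn2 at -0.06. MHC class II had -0.23, from H2-Aa at -0.70 and Cd74 at -0.62 to H2-Ab1 at 0.04 and H2-Eb1 at 0.10. Interferon-stimulated genes had -0.27, from Bst2 at -0.77 and Isg15 at -0.29 to Irf7 at 0.002 and Ifit3 at 0.05. Lung epithelium genes, of which 9 were above background in enough forestomach arrays to be tested, had -0.32 (0.16 with the slide as a block and 0.08 without high-dose forestomach 17), with Aqp5 and Sftpd at -1.28 and -0.49 and Scgb1a1 and Hopx at 0.75 and 0.47.

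**Figure D5:**
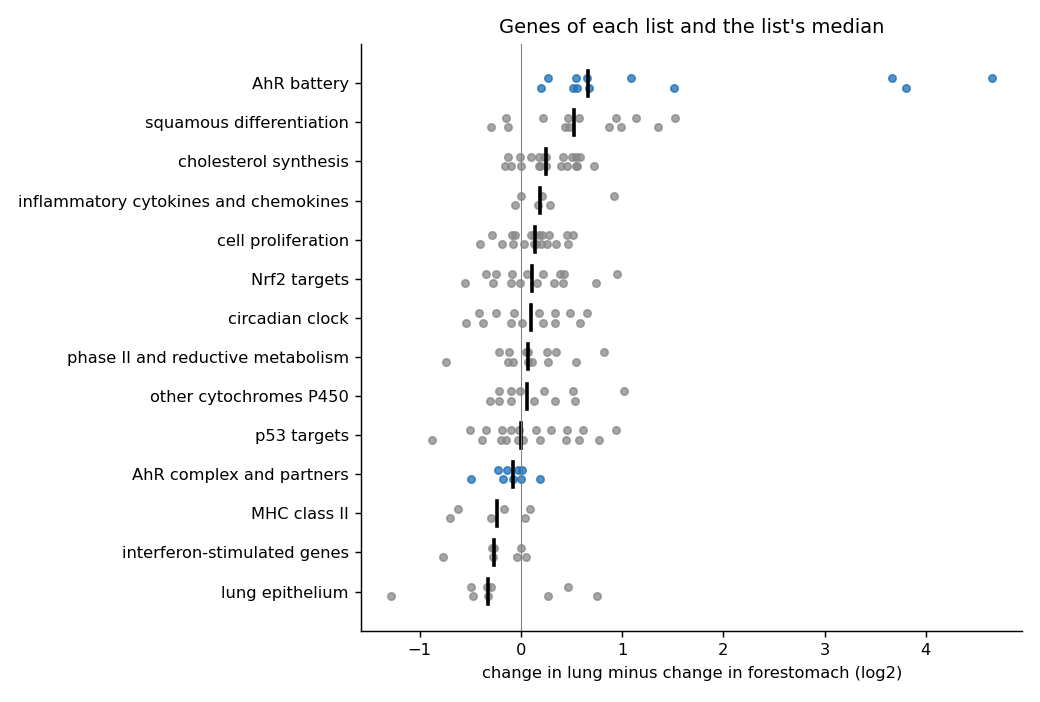
Difference between tissues (x axis, log2) of each tested gene in 14 lists, 1 point a gene, with a black line at the list's median; the AhR lists are blue. Of these 14 lists the AhR battery has the highest median, 0.66, and lung epithelium the lowest, -0.32 (above 0 when slides were blocks).

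Markers of other cells had these values. Heart muscle genes had a median difference of 1.45 over 6 genes, all above 0 (median 2.25 without vehicle lung 2), and in lung their score ran from -1.73 to 0.88 in the vehicle group and from -0.61 to 1.72 with BkF. White fat genes had 0.94 over 3 genes (-0.29 at the high dose alone), and neutrophil genes 1.22 over 2, of which S100a8 had a change of 1.97 in lung (difference 1.97, SE 0.65, limma unadjusted p = 0.0064). Skeletal muscle genes had 0.62 over 7 genes, and the median was -0.02 without lung 12. Glandular stomach genes had -0.46 over 7 genes (0.46 when slides were blocks). None of these lists held a called probe, and their part in the other results was not tested beyond leaving out single arrays and the glandular covariate.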

How the data were processed

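RNA of 23 tissue samples had been hybridised to Agilent 2-colour mouse arrays against a universal mouse reference RNA. The authors deposited 1 scanner file per array with linear median intensity per channel and a log10 ratio, per the file headers made by Feature Extraction 10.7.3.1, and a table of LOWESS-normalised log2 ratios for the series. The flags for background, saturation and outlier spots are also in the deposited files. The authors normalised non-background median intensities and tested with MAANOVA, which was not run here.

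Here log2 ratios of the median signals were normalised by loess within each array (limma 3.58.1, R 4.3.3), without background subtraction, which understates changes of dim probes. Control spots and outlier spots were left out and spots of a probe were averaged, giving 55681 probes. Of these, 24352 were well above background on at least 3 arrays in each tissue. Probes were named through RefSeq accessions (GRCm38.p6), which gave 26413 (47.4%) a symbol. No tested spot of a named probe was saturated.

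A limma model was fitted per tissue with a mean for each dose group. The contrast was the mean of D2 and D3 minus D0, and the tissues' contrasts were subtracted, with the moderated variances added and Satterthwaite degrees of freedom. All tests were two-sided, with Benjamini-Hochberg adjustment over all probes. In a test on simulated data this approximation made somewhat more false calls than a sum of 2 t distributions, which was therefore added as an alternative after seeing the data. The number of arrays limits the precision. The labels describe separate mice as replicates.

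The members, gene lists and tests were chosen with earlier results of these data known. Some list members count in their list but are not reported here by name. Named were the other genes of the AhR lists, called probes, the genes with the smallest p up to 5 per direction, and the 2 highest and 2 lowest of each other list, each by its brightest probe. Lists of cell type markers are given by the median difference of their tested genes and, for some, by a score per array. Same-numbered samples are tissues of 1 mouse, so the numbers pair them. The correlation of their deviations from the group means over probes was -0.043, 0.13, 0.30, 0.38, 0.03, 0.041, 0.35, 0.31, 0.16, 0.086 and 0.38 in the 11 mice. The mouse was not a block in the published methods and is an alternative here. The other alternatives were a spread shared by both tissues, the slide as a block, normexp correction (offset 50), quantile normalisation, the scanner software's ratios, the authors' table, other filters, the glandular score as a covariate, each dose alone and leaving out each array. The authors' table correlated with the ratios used here at 0.994 to 0.999, with column medians of -0.0425 to -0.0267. Promoters and their sequences are from RefSeq (GRCm38.p6).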

Additional observations from a re-analysis of the deposited data

Results flagged for a closer look

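The BkF effect in lung and forestomach differed by the test of the difference itself for Ahrr (3.67, with no vehicle lung well above background and 3.41 to 4.82 under the alternatives), Cyp1b1 (4.66), the Tiparp probe A_55_P1985890 (1.33) and A_55_P2004099 (2.35), all in log2 and all larger in lung.

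A single array lay far from the others of its group in 3 of 145 gene groups and in 2 of 15 groups of marker scores. Chance marks about 1 in 20 groups. Ugt1a6a read 0.0656 in high-dose lung 19, with the nearest array at 0.48. Cyp2s1 read 3.84 in vehicle lung 1, with the nearest at 3.14. Ncoa2 read -0.10 in vehicle forestomach 1, with the nearest at 0.15. The skeletal muscle score was 5.37 in medium-dose lung 12 (nearest 0.18 in that group) and 0.44 in vehicle forestomach 3 (nearest -0.03). These counts do not hold every outlying array. A squamous score of 2.35 in medium-dose lung 12 and a macrophage score of 2.61 in a medium-dose lung (group median 0.07) are not among them.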

How the results depend on the processing

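Cyp1b1, Ahrr and A_55_P2004099 were called under all 13 alternatives and in all 23 fits without 1 array. The Tiparp probe was called in 9 of 13 and 15 of 23, and was not with the mouse as replicate block (1.38), quantile normalisation (1.18), the scanner software's ratios (1.35) or the medium dose alone (0.98). The count of called differences was 3 with the mouse as replicate block and 9 with the slide as a block (7 larger in lung, 2 smaller), and 3 to 5 without 1 array. Blocking by slide gave a lung count of 17, against 6 at the medium dose alone and 7 to 31 without 1 array. The forestomach count in limma was 0 under all of the settings run. The count for high against medium dose was 165 with the slide as a block (15 above 0, 150 below) and 0 without 1 array. The causes were not tested. No alternative moved the median of all probes by over 0.1.

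Under the alternatives 41 values of named genes turned in sign. With the scanner software's ratios they were Cyp1a1 -1.43, Arnt -0.099, Ptges3 0.0304, Cyp2b10 -0.021, Cyp2j9 0.073, Cxcl10 -0.23, Il33 0.052, Lcn2 0.051, Ifit3 -0.055 and Irf7 -0.21. With quantile normalisation they were Cyp2s1 -0.069, Arnt -0.064, Il33 0.0046, H2-Ab1 -0.049 and Ifit3 -0.0504. At the medium dose alone they were Arnt -0.0398, Il33 0.012 and Lcn2 0.11. With the mouse as replicate block it was Hsp90aa1 0.074. With the slide as a block they were Ncoa3 -0.0061, Akr1a1 0.094, Rora -0.015, Krt16 0.32, Sftpd 0.57, Insig1 0.17, Il33 0.24, H2-Eb1 -0.17, H2-Ab1 -0.21 and Ifit3 -0.13. With the glandular covariate they were Hsp90aa1 0.019, Il33 0.078 and Irf7 -0.028. At the high dose alone they were Hsp90aa1 0.23, Ptges3 0.034, Krt16 0.49, Ifit3 -0.073 and Irf7 -0.064. With normexp correction they were Il33 0.0029 and Irf7 -0.015. In the authors' table they were Il33 0.028 and Irf7 -0.018. Of 1725 values without 1 array 67 turned, with ranges of Arnt -0.086 to 0.18, Hsp90aa1 -0.33 to 0.37, Hsp90ab1 -0.47 to 0.015, Ptges3 -0.23 to 0.088, Ncoa1 -0.26 to 0.044, Akr1a1 -0.33 to 0.012, Cyp2b10 -0.068 to 1.16, Krt16 -0.81 to 0.33, Sftpd -1.06 to 0.34, Insig1 -0.28 to 0.057, Il33 -0.26 to 0.16, Lcn2 -0.20 to 0.023, H2-Eb1 -0.039 to 0.25, H2-Ab1 -0.098 to 0.13, Ifit3 -0.062 to 0.14, Irf7 -0.16 to 0.31 and Isg15 -0.52 to 0.00899. The 4 called probes were not among them. Fewer spots were well above background on forestomach arrays, and whether this affected the changes of dim genes there was not tested.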

Other observations

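Further marker lists had no called difference. The median difference was 0.17 for smooth muscle (6 genes), 0.14 for pancreatic acinar cells (3), 0.20 for liver (3), 0.92 for brown fat (2), -0.21 for B cells (2), 0.03 for T cells (3), 0.09 for macrophages (4), -0.07 for red cell precursors (2) and -0.01 for neuroendocrine cells (4). Grp in lung had the lowest difference of the 24352 probes, -1.92 (SE 0.94), and was not called.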
